A study of Mus musculus with 15 samples.

Results

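The antioxidant, glutathione and metallothionein genes examined here are 40 genes chosen by name as targets of the transcription factor NRF2 and as redox enzymes, out of 48795 genes in the count tables. These genes, and the wider lists set beside them below, were chosen with earlier results of these data known. Counts of them set beside the shares of all tested genes are therefore descriptions. All 40 symbols matched an Ensembl identifier through the GENCODE annotation, and all 40 passed the filter on low counts together with 14991 genes in all. The libraries came from polyA RNA of ears of female mice aged 5 weeks, in a model in which phorbol 12-myristate 13-acetate (PMA), a phorbol ester that activates protein kinase C, inflames the skin of the ear. Control ears gave 5 libraries, ears labelled PMA_ethanol (PMA and ethanol) gave 4, and ears labelled PMA_1002 gave 6. The last label is read, from the title of the series, as PMA with the innate defense regulator peptide of that number. The question behind the series is how that peptide acts against inflammation that arises without infection. The sources used here do not give strain, doses, times or the treatment of the control ears. They also do not say whether each library is a separate mouse, so p-values measure the spread between libraries, which may be technical.

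Cells under oxidative load keep NRF2 (gene Nfe2l2) in the nucleus, whereas at rest KEAP1 (Keap1) binds it in the cytoplasm and sends it to the proteasome. NRF2, paired with a small MAF protein, switches on genes that import cystine, make glutathione, reduce thioredoxin and peroxiredoxins, supply NADPH, and store iron. Metallothioneins are small cysteine-rich proteins that bind zinc and copper and are switched on by the metal-sensing factor MTF1, by glucocorticoids and by cytokine signals. In skin these systems limit the damage from oxidants made by keratinocytes and by infiltrating neutrophils and macrophages.

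Depth differed widely: the shallowest library, PMA_ethanol 3, held 2656680 reads in genes and the deepest, PMA_1002 5, held 28585995. Values below are CPM, the reads of a gene per 1000000 reads in genes, with library sizes scaled by edgeR's TMM method. Differences between groups are log2 fold changes, with a standard error (SE), from edgeR's quasi-likelihood test, with p-values adjusted by Benjamini-Hochberg over all 14991 genes, and "rose" or "fell" means an adjusted p under 0.05. Markers of other cells moved with the groups. The summed level of 10 neutrophil markers was 88.1 to 110.9 CPM in control, 1411 to 3063 in PMA_ethanol and 397.1 to 707.6 in PMA_1002 libraries, with none of the 10 at 0 throughout a group. Sums for 10 macrophage markers were 631.3 to 811.8, 1385 to 1919 and 947.6 to 1231 CPM in that order, but few of the 10 carried this: with PMA_ethanol 4 rose and 3 fell, with a median log2 fold change of 0.11. Differentiated keratinocyte markers, 8 genes, summed to 15210.0 to 21300.0, 8024 to 10930.0 and 17130.0 to 19840.0 CPM. Of the 8, 5 fell and 1 rose with PMA_ethanol, where 35.9% and 32.5% of all tested genes did. Their mean log2 CPM overlapped between control (8.86 to 9.35) and PMA_ethanol libraries (8.33 to 8.90). The mean log2 CPM of 15 hair follicle markers varied within every group: control libraries spanned 1.84 to 6.91, PMA_ethanol libraries -0.01 to 6.76 and PMA_1002 libraries -0.20 to 5.30. The 6 libraries above 4 (control 3 and 5, PMA_ethanol 1 and 2, PMA_1002 1 and 4) are called hair-rich below. In whole ears a change in the number of cells of a type and a change in RNA per cell cannot be told apart. The part of neutrophils, macrophages and keratinocytes in the results below was not tested, and for hair follicle level, fits with it as a covariate and without the hair-rich libraries were made.

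The promoters of 5 genes that rose most with PMA_ethanol are shown first, because several of the sequences that NRF2, AP-1, the metal-sensing factor and the amino acid stress factor ATF4 are known to bind lie in them. Each line gives the 250 bases before a RefSeq start on GRCm38.p6, 5′ to 3′ on the strand of the gene, with capitals at matches on either strand to the antioxidant response element core TGACNNNGC, the AP-1 site TGACTCA, its extension TGACTCAGC or TGAGTCAGC (NF-E2 type), the metal response element core TGCACNC or TGCGCNC, and the amino acid response element core TGATGNAAN. An NF-E2 type site always contains an AP-1 site, and in the form TGACTCAGC it also contains the antioxidant core. The NF-E2 type and amino acid elements were added to the search after the sequences were seen. The set of windows used here holds 3 starts for Txnrd1, and its windows not printed hold no match to any of these elements. Windows and coordinates are Srxn1 chr2:152105274-152105523 (plus strand), Txnrd1 chr10:82858956-82859205 (plus), Slc7a11 chr3:50443614-50443863 (minus), Mt2 chr8:94172368-94172617 (plus) and Mt1 chr8:94178839-94179088 (plus).
Srxn1: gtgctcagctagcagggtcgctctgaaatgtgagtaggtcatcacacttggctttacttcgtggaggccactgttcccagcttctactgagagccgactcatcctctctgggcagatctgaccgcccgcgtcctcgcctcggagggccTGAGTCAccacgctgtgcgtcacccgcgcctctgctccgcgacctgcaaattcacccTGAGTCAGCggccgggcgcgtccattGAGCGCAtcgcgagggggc
Txnrd1: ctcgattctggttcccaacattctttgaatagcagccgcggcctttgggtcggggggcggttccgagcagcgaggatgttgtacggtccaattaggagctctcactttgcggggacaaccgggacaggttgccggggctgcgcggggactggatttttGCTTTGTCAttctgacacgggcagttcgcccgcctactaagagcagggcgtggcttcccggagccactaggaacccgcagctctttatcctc
Slc7a11: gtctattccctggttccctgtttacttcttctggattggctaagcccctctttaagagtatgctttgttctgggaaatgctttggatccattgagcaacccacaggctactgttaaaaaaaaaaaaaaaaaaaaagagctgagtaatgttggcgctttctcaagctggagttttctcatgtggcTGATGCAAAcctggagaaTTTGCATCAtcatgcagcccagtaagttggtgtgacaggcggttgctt
Mt2: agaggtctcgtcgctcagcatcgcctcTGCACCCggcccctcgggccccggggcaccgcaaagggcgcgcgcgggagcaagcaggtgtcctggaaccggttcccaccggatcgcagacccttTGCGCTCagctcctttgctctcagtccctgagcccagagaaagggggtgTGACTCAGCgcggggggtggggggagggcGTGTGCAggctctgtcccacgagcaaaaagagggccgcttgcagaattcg
Mt1: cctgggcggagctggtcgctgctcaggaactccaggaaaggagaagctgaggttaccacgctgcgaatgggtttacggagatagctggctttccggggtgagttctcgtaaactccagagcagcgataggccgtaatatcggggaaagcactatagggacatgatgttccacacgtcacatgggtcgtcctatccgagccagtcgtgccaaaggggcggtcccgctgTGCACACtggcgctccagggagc

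The set of RefSeq windows used here covered 33 of the 40 genes, with 42 windows in all. It lacked Gclc, Prdx6, Gsta4, Hmox1, Sod3, Abcc1 and Gsr, so the promoters of these genes were not searched. The NF-E2 type site stood in 0.706% of all 32851 windows and in 9.52% of the members' windows, those of Srxn1, Gstp1, Prdx1 and Mt2. It was added after the sequences were seen, and members were chosen as NRF2 targets, so these shares are no test. In Srxn1 the NF-E2 type site began 45 bases before the start, with a further AP-1 site at 102 bases. In Mt2 it began 79 bases before the start, between metal response cores that began at 128 and 50 bases. A further metal response core in Mt2 began at 223 bases, and the single core in the Mt1 window began at 23 bases. Bases after the Mt1 start used here were not searched, so any core there was missed. The antioxidant core was found in 10.2% of all windows and in 9 members, Nfe2l2, Gclm, Txnrd1, G6pdx, Gsta3, Mgst1, Prdx1, Sod1 and Mt2, or 21.4% of member windows. AP-1 sites stood in 4.46% of all windows and 11.9% of member windows, and metal response cores in 21.4% and 19%. The amino acid response core, also added after the sequences were seen, stood in 3.44% of all windows and 2.38% of member windows. The only member with it was Slc7a11, where 2 copies faced each other 66 and 48 bases before the start. A match is only a run of letters, and neither a match nor its absence from these windows shows whether a factor bound there.

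With PMA_ethanol against control, 16 of the 40 genes rose and 14 fell, at a background where 32.5% of all tested genes rose and 35.9% fell (68.4% in either direction). At least a fold of 2 was reached by 10 that rose, Slc7a11, Mt2, Mt1, Srxn1, Txnrd1, Hmox1, Sod2, Nfe2l2, Fth1 and Gsr, and by 3 that fell, Mgst2, Cat and Gsta3. Of all tested genes 13.8% rose and 13.8% fell by as much. The median log2 fold change of the members was 0.00, against -0.07 over all tested genes. Groups did not overlap in CPM for 20 members, where 57.8% of all tested genes had groups that did not overlap. With the 6 hair-rich libraries left out, a choice made after seeing the data, 14 members rose and 9 fell. Over all tested genes this fit gave 4439 that rose and 4119 that fell, against 4876 and 5382 with all libraries. Upper-quartile scaling, which moved the median of all genes to -0.30, gave 12 that rose and 20 that fell, and lowered the share of rises among all called genes from 47.53% to 33.64%.

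With PMA_1002 against PMA_ethanol, 5 members rose and 9 fell, where 17% and 18% of all tested genes did (35% in either direction). A fold of 2 was reached by 2 members, Slc7a11 and Srxn1, both lower, where 2.57% of all genes rose and 4.95% fell by as much. The 9 were Slc7a11, Srxn1, Mt2, Txnrd1, Sod2, Fth1, Ftl1, Nfe2l2 and Taldo1, and the 5 were Cat, Keap1, Gstm1, Mgst2 and Prdx2. Without PMA_ethanol library 1, 3 rose, with Mgst2 and Prdx2 lost. The members' median was -0.09, against 0.03 over all genes, and the groups did not overlap for 11 members (24.1% of all genes). Upper-quartile scaling gave 7 that rose and 7 that fell, and moved the share of rises among all called genes from 48.68% to 61.84%.

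With PMA_1002 against control, 12 members rose and 9 fell, where 28.4% and 26.7% of all tested genes did (55% in either direction). A fold of 2 was reached by 7 that rose, Mt2, Mt1, Slc7a11, Hmox1, Txnrd1, Sod2 and Srxn1, and by 1 that fell, Mgst2, where 7.58% and 4.84% of all genes moved by as much. The groups did not overlap for 15 members, against 36.7% of all genes. Upper-quartile scaling gave 9 that rose and 17 that fell, with the share of rises among all called genes at 34.63% against 51.54%. The comparisons share libraries, so their values are given side by side and not as separate evidence. Counts by role below are to be read beside the shares of all tested genes given above. In 6 members all 3 groups stood apart in CPM with PMA_1002 in the middle and PMA_ethanol highest: Slc7a11, Txnrd1, Srxn1, Sod2, Mt2 and Fth1. The same order held for 8.89% of all tested genes. In 2 members, Mgst2 and Cat, PMA_ethanol was lowest and PMA_1002 in the middle, an order held by 4.79% of all genes.

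**Figure D1:**
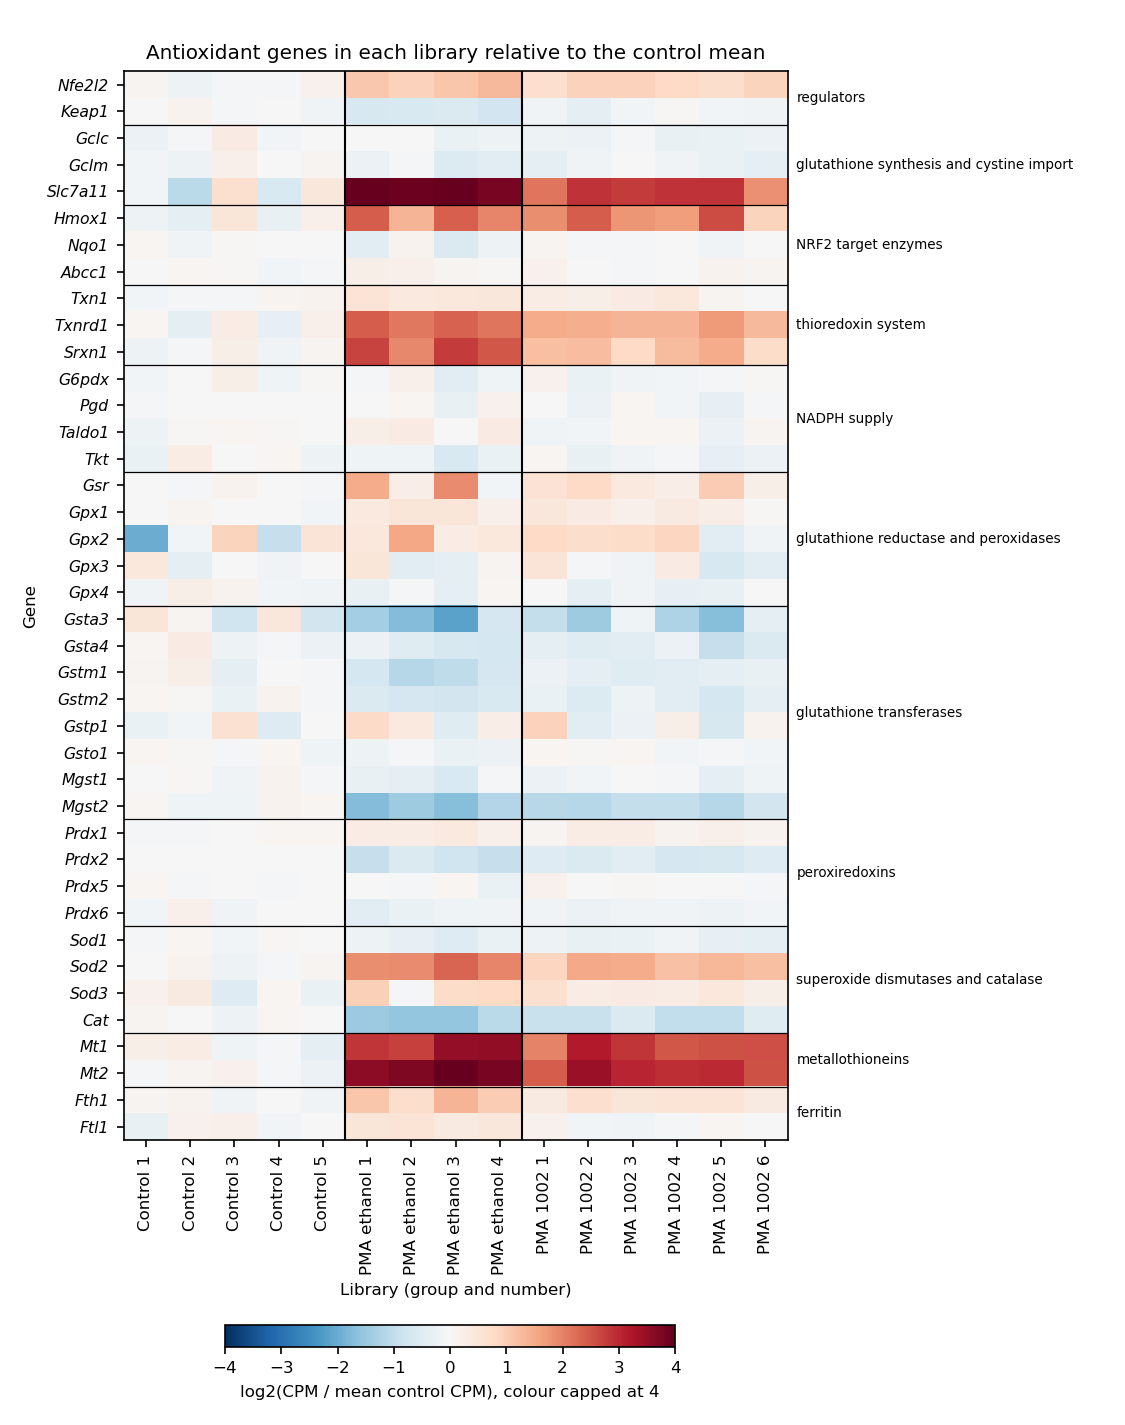
Each row is 1 of the 40 genes, grouped by role, and each column 1 of the 15 libraries; colour gives log2 of CPM over the mean control CPM, capped at 4. Slc7a11, Mt1 and Mt2 are the darkest rows in PMA_ethanol, the glutathione transferases are mostly below control in PMA_ethanol, and the PMA_1002 columns are paler than the PMA_ethanol columns for Slc7a11, Srxn1, Txnrd1, Sod2 and Mt2.

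Regulators. The gene for NRF2 itself rose and the gene for its inhibitor KEAP1 fell with PMA_ethanol. Nfe2l2 stood at 95.6, 76.8, 86.3, 85.5 and 102 CPM in control libraries 1 to 5 and at 190.1, 169, 192 and 217 in PMA_ethanol libraries 1 to 4. In the 6 PMA_1002 libraries its lowest value was 141, its median 160.2 and its highest 169 CPM. Every PMA-treated library was above every control library, while PMA_ethanol library 2 met the top of the PMA_1002 range. The log2 fold change in edgeR's test was 1.11 (SE 0.091, adjusted p = 1.23e-08) for PMA_ethanol and 0.82 (SE 0.084, adjusted p = 4.53e-07) for PMA_1002, each against control. Between PMA_1002 and PMA_ethanol Nfe2l2 fell by 0.29 (SE 0.087, edgeR adjusted p = 0.0167), and this call was lost without PMA_ethanol library 4 (adjusted p = 0.069) and with upper-quartile scaling (adjusted p = 0.0684). Keap1 read 58.3, 64.8, 56.6, 59.03 and 53.5 CPM in control and 37.4, 38.2, 39.4 and 34.04 CPM in PMA_ethanol libraries, and 45.4, 54.01 and 59.8 CPM as the lowest, median and highest of PMA_1002. PMA_ethanol libraries lay below all others, and PMA_1002 libraries overlapped the controls. Keap1 fell by 0.65 on the log2 scale with PMA_ethanol (SE 0.085, adjusted p = 2.95e-06), rose by 0.52 between PMA_1002 and PMA_ethanol (SE 0.082, edgeR adjusted p = 9.90e-05), and stood at -0.13 against control with PMA_1002 (SE 0.074, adjusted p = 0.156), which upper-quartile scaling called lower at -0.29 (adjusted p = 0.00409).

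The 12 other partners and regulators of NRF2 tested beside these genes held 8 that rose and 1 that fell with PMA_ethanol (32.5% and 35.9% of all tested genes). Bach1, a repressor that competes with NRF2 for antioxidant response elements, went from 95.9 ± 5.901 CPM in control (mean ± SD, n = 5) to 349 ± 11.2 in PMA_ethanol (n = 4) and 270.3 ± 16.6 in PMA_1002 (n = 6). Maff, a small MAF partner, went from 11.4 ± 1.08 to 98.6 ± 23.6 and 57.6 ± 6.32 CPM, and its relative Mafk from 35.3 ± 4.79 to 114 ± 22.8 and 64.8 ± 4.39 CPM. The edgeR log2 fold changes with PMA_ethanol were 1.86 for Bach1, 3.09 for Maff and 1.69 for Mafk (adjusted p = 7.10e-13, 2.09e-11 and 3.85e-09). With PMA_1002 against PMA_ethanol none of the 12 rose and 6 fell, where 17% and 18% of all tested genes did. Among the 6 were Maff, by 0.77, and Mafk, by 0.80 (edgeR adjusted p = 2.55e-04 and 5.43e-05). Btrc, a subunit of a ubiquitin ligase that can mark NRF2 for breakdown, was the 1 gene of this list that fell with PMA_ethanol, to -0.51 (adjusted p = 0.00137).

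Cystine import and glutathione synthesis. The transporter rose and the synthesis enzymes did not. Slc7a11 encodes the light chain of the exchanger that brings cystine into the cell. It read 5.72, 2.93, 9.71, 4.01 and 8.53 CPM in control libraries and 120.3, 93.1, 139 and 86.2 CPM in PMA_ethanol libraries, with 22.03, 44.1 and 45.8 CPM as the lowest, median and highest of PMA_1002. The 3 groups did not meet at any value, and PMA_1002 lay between the other two. The log2 fold change was 4.09 (SE 0.32, edgeR adjusted p = 3.50e-08) with PMA_ethanol, the largest among the members, 2.58 (SE 0.30, adjusted p = 5.34e-06) with PMA_1002 against control, and -1.51 (SE 0.26, adjusted p = 4.77e-04) between the treated groups. Parts of its long transcript match 9 other genes at 95% identity or more over at least 200 bases. Reads aligned to several positions were counted for no gene, so the level of Slc7a11 is uncertain. Slc3a2, the heavy chain of the same exchanger, rose from 146 ± 15.5 to 265 ± 15.9 CPM with PMA_ethanol and stood at 211 ± 8.84 with PMA_1002 (log2 fold change 0.87, edgeR adjusted p = 3.38e-08, and -0.33 between the treated groups, adjusted p = 0.00226).

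Gclc and Gclm encode the catalytic and modifier subunits of the enzyme that limits glutathione synthesis. Gclc ranged over 52.5 to 76.9 CPM in control, 51.02 to 60.5 in PMA_ethanol and 49.6 to 57.9 in PMA_1002, and Gclm over 37.5 to 49.6, 29.4 to 40.7 and 33.5 to 42.3. All these ranges overlapped. Gclm fell with PMA_ethanol to -0.29 (SE 0.11, edgeR adjusted p = 0.0249), a call lost when control library 3 or 5 or PMA_ethanol library 3 or 4 was left out (adjusted p = 0.0539 to 0.0858). Gclc read -0.12 with PMA_ethanol (adjusted p = 0.275) and fell with PMA_1002 against control to -0.23 (SE 0.088, edgeR adjusted p = 0.0374), a call lost when any of 7 libraries (control 3 and 5, PMA_1002 1, 2, 4, 5 and 6) was left out (adjusted p = 0.061 to 0.142). Without the hair-rich libraries Gclc stood at -0.04 in that comparison (adjusted p = 0.705) and Gclm at -0.32 with PMA_ethanol (adjusted p = 0.0622). Upper-quartile scaling called Gclc lower with PMA_ethanol (-0.36, adjusted p = 0.00325) and Gclm lower with PMA_1002 against control (-0.37, adjusted p = 0.00346).

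Among 20 other tested genes of glutathione metabolism, 4 rose and 9 fell with PMA_ethanol (32.5% and 35.9% of all tested genes). With PMA_1002 against PMA_ethanol 8 of them rose and 5 fell (17% and 18% of all tested genes). Glrx, a glutaredoxin that removes glutathione from proteins, rose from 57.9 ± 6.18 to 264 ± 78.7 CPM and stood at 120 ± 13.2 with PMA_1002 (log2 fold change 2.19 with PMA_ethanol and -1.13 between the treated groups, edgeR adjusted p = 6.45e-09 and 2.79e-05). Abcc5, an export pump of the multidrug resistance protein family, went the other way, from 176 ± 17.6 to 37.3 ± 5.42 and 68.95 ± 13.5 CPM (log2 fold change -2.21, 0.86 between the treated groups, edgeR adjusted p = 6.02e-10 and 1.06e-04). Ggt6, of the family that splits extracellular glutathione, read 32.9 ± 1.999, 9.13 ± 2.47 and 22.6 ± 2.69 CPM, and Lancl1, a glutathione-binding protein, 112 ± 5.56, 38.02 ± 10.8 and 59.6 ± 8.802 CPM. Both fell with PMA_ethanol (-1.78 and -1.51, edgeR adjusted p = 1.02e-08 and 1.71e-07). Abcc3, a further export pump, rose between the treated groups by 0.81 (edgeR adjusted p = 2.66e-04), from 8.49 ± 1.11 to 15.2 ± 1.25 CPM, with 9.304 ± 1.68 in control.

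**Figure D2:**
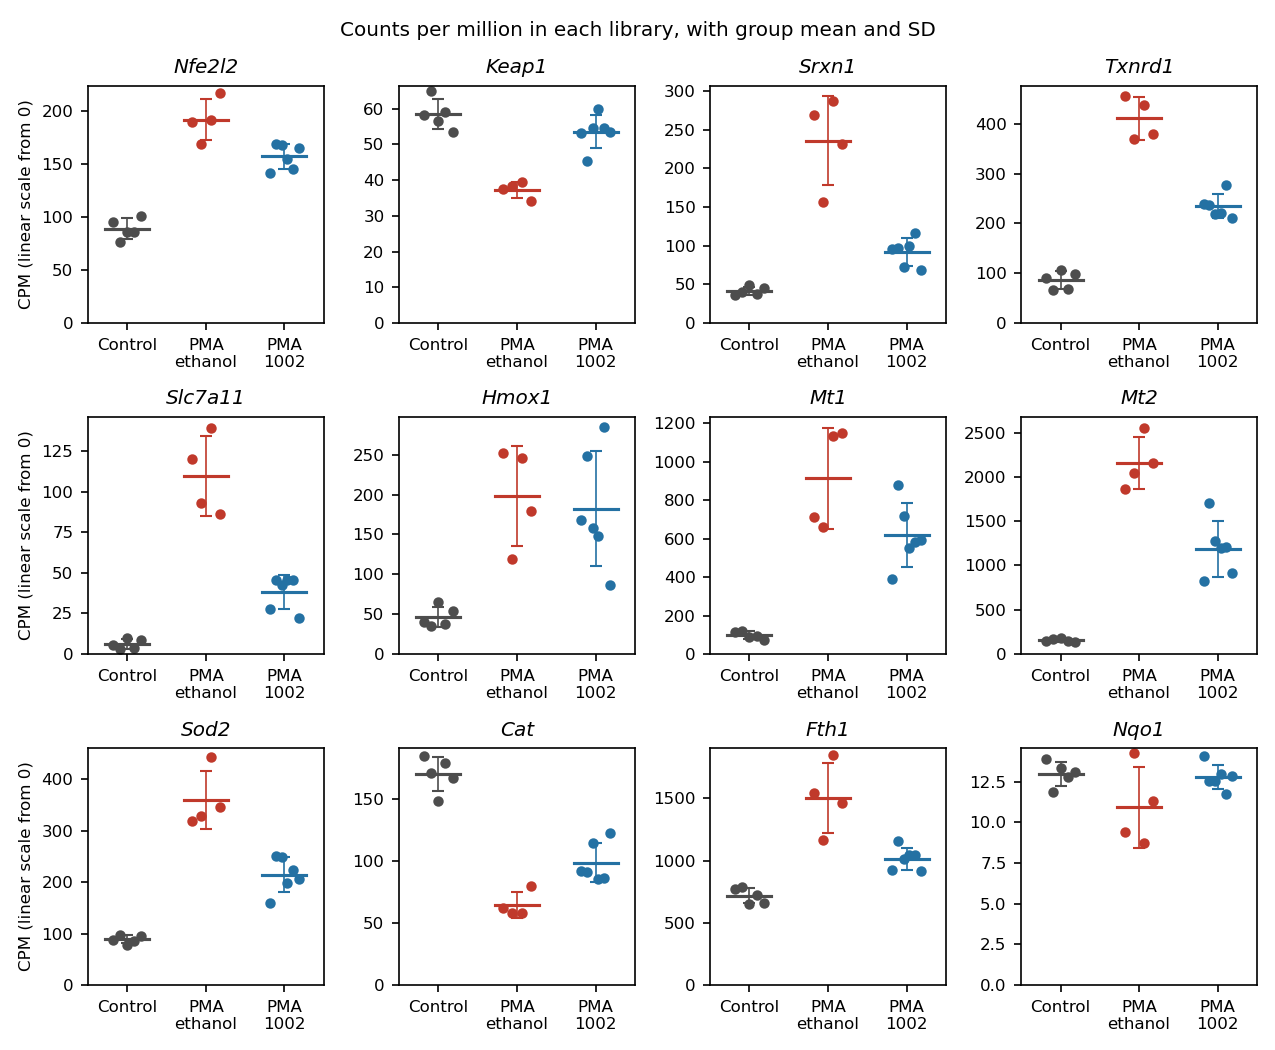
CPM on a linear axis from 0 in each library for 12 of the genes, with horizontal bars at the group mean and error bars of 1 SD (n = 5, 4 and 6). The 3 groups are separate for Slc7a11, Txnrd1, Srxn1, Sod2, Mt2, Fth1 and Cat, while Hmox1 overlaps between the PMA groups and Nqo1 across all groups.

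NRF2 target enzymes. Of the 3 members placed in this role, 1 rose with PMA_ethanol. Slc7a11, Srxn1 and Txnrd1, which rose there, and Gclm, which fell, are counted under other roles. Hmox1, heme oxygenase, which breaks heme down to biliverdin, iron and carbon monoxide, read 40.6, 35.5, 64.98, 37.8 and 53.95 CPM in control and 252, 119, 245 and 179 in PMA_ethanol libraries, and 87.1, 163 and 285 as the lowest, median and highest of PMA_1002. Every PMA-treated library exceeded every control, and the PMA_1002 range enclosed the PMA_ethanol range. Hmox1 rose by 2.07 (SE 0.33, edgeR adjusted p = 7.75e-05) with PMA_ethanol and by 1.97 (SE 0.31, adjusted p = 1.26e-04) with PMA_1002. Between the treated groups the difference was -0.11 with an SE of 0.31 (adjusted p = 0.83), an uncertainty that leaves room for a fall or a rise.

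Nqo1, a quinone reductase, ranged over 11.9 to 13.9 CPM in control, 8.71 to 14.3 in PMA_ethanol and 11.8 to 14.1 in PMA_1002. It did not pass the test in any comparison (-0.22, 0.19 and -0.02, SE 0.132, 0.127 and 0.118, edgeR adjusted p = 0.466, 0.926 and 0.879). The p-values of the comparisons with PMA_ethanol are larger than these SEs alone would give. They therefore do not measure only the spread between libraries for Nqo1. PMA_ethanol library 2 held its highest value, and without that library Nqo1 was called lower with PMA_ethanol (adjusted p = 0.0111) and higher with PMA_1002 against PMA_ethanol (adjusted p = 0.0284). Upper-quartile scaling also called Nqo1 lower with PMA_ethanol (-0.45, adjusted p = 0.00766). Abcc1, which exports glutathione conjugates, kept within 199 to 227 CPM in control, 222 to 255 in PMA_ethanol and 211 to 246 in PMA_1002 and passed no test; with PMA_ethanol it read 0.15 (edgeR adjusted p = 0.0652), which passed when PMA_ethanol library 4 or PMA_1002 library 1 or 6 was left out (adjusted p = 0.0331 to 0.0361) and in DESeq2 (adjusted p = 0.00989).

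The 16 other NRF2 target enzymes held 4 that rose and 9 that fell with PMA_ethanol (32.5% and 35.9% of all tested genes). Akr1b8, an aldo-keto reductase, rose from 12.9 ± 0.819 to 93.2 ± 27.6 CPM and stood at 38.7 ± 7.62 with PMA_1002 (log2 fold change 2.86 with PMA_ethanol, -1.26 between the treated groups, edgeR adjusted p = 9.65e-10 and 2.04e-05). Ugdh, which makes the UDP-glucuronic acid used in conjugation and in hyaluronan, rose by 1.83 and fell by 0.98 between the treated groups (edgeR adjusted p = 4.91e-08 and 1.11e-04). Cbr3, a carbonyl reductase, rose from 30.7 ± 2.98 to 56.5 ± 7.495 CPM and read 55.7 ± 2.67 with PMA_1002. Ephx1, an epoxide hydrolase, and Idh1, a source of cytosolic NADPH, fell with PMA_ethanol to -1.46 and -1.20 (edgeR adjusted p = 7.16e-09 and 3.17e-07). Ephx1 read 68.3 ± 6.75, 24.5 ± 4.25 and 36.8 ± 3.61 CPM in control, PMA_ethanol and PMA_1002.

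Thioredoxin system. All 3 members rose with PMA_ethanol and with PMA_1002 against control, Txn1 in the latter under fewer of the alternatives. Srxn1, sulfiredoxin, which restores overoxidized peroxiredoxins, read 35.9, 40.5, 48.7, 37.3 and 45.1 CPM in control and 268, 157, 287 and 231 in PMA_ethanol libraries, and 68.8, 96.3 and 116 as the lowest, median and highest of PMA_1002. The groups were separate, with PMA_ethanol library 2 the lowest of its group and still above every PMA_1002 library. Srxn1 rose by 2.49 (SE 0.18, edgeR adjusted p = 5.61e-09) with PMA_ethanol and by 1.14 (SE 0.16, adjusted p = 2.82e-05) with PMA_1002, and fell by 1.35 (SE 0.16, adjusted p = 1.29e-05) between the treated groups. Txnrd1, the reductase that passes electrons from NADPH to thioredoxin, read 90.01, 65.97, 106, 69.04 and 98.7 CPM in control and 456, 370.1, 438 and 379 in PMA_ethanol libraries, and 212, 229 and 278 in PMA_1002. Its groups did not overlap either. Txnrd1 rose by 2.25 (SE 0.13, edgeR adjusted p = 1.60e-10), rose by 1.45 with PMA_1002 against control (SE 0.12, adjusted p = 4.26e-08) and fell by 0.81 between the treated groups (SE 0.12, adjusted p = 6.73e-05). Thioredoxin itself, Txn1, moved less, from 114 ± 9.08 CPM (mean ± SD, n = 5) to 156 ± 6.59 (n = 4) and 135 ± 14.2 (n = 6). Its rises of 0.45 and 0.24 against control passed (edgeR adjusted p = 1.62e-04 and 0.0146). The rise with PMA_1002 was lost with upper-quartile scaling (0.08, adjusted p = 0.388) and without the hair-rich libraries (0.22, adjusted p = 0.0765). The difference between the treated groups did not (-0.21, adjusted p = 0.0536), and passed without PMA_1002 library 1 or 4 (adjusted p = 0.028 to 0.0441) and in DESeq2 (adjusted p = 0.0113).

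In the wider list of thioredoxin, peroxiredoxin and protein repair genes, 5 of 16 rose and 6 fell with PMA_ethanol (32.5% and 35.9% of all tested genes). Txnip, the thioredoxin-binding inhibitor, fell from 534 ± 154 to 165 ± 21.7 CPM and stood at 219 ± 26.3 with PMA_1002 (log2 fold change -1.70 with PMA_ethanol, edgeR adjusted p = 1.93e-07). The sestrins, stress proteins that act on peroxiredoxins and on mTORC1 signalling, moved in opposite directions. Sesn2 rose from 24.5 ± 4.199 to 96.02 ± 21.3 CPM and read 33.2 ± 4.02 with PMA_1002, whereas Sesn1 fell from 72.1 ± 11.7 to 10.03 ± 2.07 and read 20.6 ± 4.84. Their log2 fold changes with PMA_ethanol were 1.96 and -2.80 (edgeR adjusted p = 4.77e-09 and 1.11e-09), and between the treated groups -1.52 and 0.99 (adjusted p = 5.00e-07 and 4.11e-04). Sesn3 fell too, by 1.23 (edgeR adjusted p = 8.63e-06). Msrb1, a methionine sulfoxide reductase, rose by 1.23 and fell by 0.85 between the treated groups (edgeR adjusted p = 1.06e-08 and 3.59e-06).

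NADPH supply. Of the 4 pentose phosphate pathway enzymes, 1 rose and 1 fell with PMA_ethanol, both by little. G6pdx, the first enzyme of the pathway, ranged over 97.4 to 131 CPM in control, 80.1 to 127 in PMA_ethanol and 92.8 to 125 in PMA_1002. Pgd, which makes the next NADPH, ranged over 111 to 118, 93.3 to 130.2 and 92.5 to 123 CPM. Neither passed in any comparison, with G6pdx at -0.09 (SE 0.12, edgeR adjusted p = 0.514) and Pgd at -0.00 (SE 0.092, adjusted p = 0.9896) for PMA_ethanol against control. Upper-quartile scaling called both lower there (-0.32 and -0.24, adjusted p = 0.0233 and 0.037) and Pgd lower with PMA_1002 against control (-0.25, adjusted p = 0.0192). The sugar-exchanging enzymes Taldo1 and Tkt moved little and in opposite directions. Taldo1 rose by 0.23 with PMA_ethanol (SE 0.091, edgeR adjusted p = 0.0315) and fell by 0.27 between the treated groups (SE 0.087, adjusted p = 0.0241). The rise was lost without control library 1 or PMA_ethanol library 1, 2 or 4 (adjusted p = 0.0607 to 0.091), the fall without PMA_ethanol library 1, 2 or 4 or PMA_1002 library 5 (adjusted p = 0.0518 to 0.0763), and upper-quartile scaling put the former at -0.01 (adjusted p = 0.963). Without the hair-rich libraries neither passed (adjusted p = 0.168 and 0.304). Tkt fell by 0.29 with PMA_ethanol (SE 0.12, edgeR adjusted p = 0.0465), a call lost when any of 9 libraries was left out (control 2, 3 and 4, PMA_ethanol 3 and 4, PMA_1002 1, 3, 4 and 6; adjusted p = 0.0504 to 0.171) and in DESeq2 (adjusted p = 0.0813).

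Glutathione reductase and peroxidases. Gsr, which returns oxidized glutathione to its reduced form, varied more among the PMA_ethanol libraries than any other member, relative to its mean. It read 37.3, 34.97, 40.3, 36.1 and 34.8 CPM in control, 102, 44.2, 136 and 34.2 in PMA_ethanol libraries 1 to 4, and 42.7, 51.5 and 74.6 as the lowest, median and highest of PMA_1002. PMA_ethanol libraries 1 and 3 stood above every other library, while library 4 lay below every control. Gsr rose by 1.06 with PMA_ethanol (SE 0.33, edgeR adjusted p = 0.0106), and without the hair-rich libraries the call was lost (adjusted p = 0.0912). Between the treated groups and for PMA_1002 against control Gsr did not pass (-0.48 and 0.58, adjusted p = 0.255 and 0.115). Both passed without PMA_ethanol library 4 (adjusted p = 0.0453 and 0.0472). All PMA_1002 libraries were above all controls, and in an edgeR fit of only these 2 groups the comparison passed (adjusted p = 0.00185). The main fit shares 1 estimate of spread over all 3 groups, with the wide PMA_ethanol values among them.

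Gpx1, the main cytosolic glutathione peroxidase, rose from 181 ± 9.46 CPM to 237 ± 20.8 and 220.2 ± 20.1 in control, PMA_ethanol and PMA_1002, by 0.39 and 0.28 against control (edgeR adjusted p = 4.92e-04 and 0.00432). With upper-quartile scaling both calls were lost (0.15 and 0.12, adjusted p = 0.108 and 0.165), and without the hair-rich libraries the second was (0.22, adjusted p = 0.081). Gpx2, the epithelial form, was low at 0.5203 to 3.77 CPM in control, 2.49 to 6.002 in PMA_ethanol and 1.48 to 3.71 in PMA_1002. Its log2 fold change of 0.79 with PMA_ethanol did not pass (SE 0.43, edgeR adjusted p = 0.115), and passed without control library 3 (adjusted p = 0.027). With hair follicle level as a covariate Gpx2 passed at 0.78 with PMA_ethanol (adjusted p = 0.0379) and at 0.98 with PMA_1002 against control (adjusted p = 0.0223), where it otherwise stood at 0.39 (adjusted p = 0.439). Gpx3, the secreted form, and Gpx4, which reduces lipid peroxides in membranes, passed in no comparison. Gpx3 varied about as widely inside each group (36.2 to 62.95, 35.6 to 66.1 and 30.4 to 67.95 CPM) as across them, and Gpx4 read 99.4 ± 12.6, 88.6 ± 12.8 and 87.9 ± 10.3 CPM, which upper-quartile scaling called lower against control with PMA_ethanol (-0.39, adjusted p = 0.0072) and with PMA_1002 (-0.34, adjusted p = 0.0124).

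Glutathione transferases. These enzymes, which attach glutathione to electrophiles, were the role with the most falls: 7 of 8 fell and none rose with PMA_ethanol. They were also the role with the most members, and 35.9% of all tested genes fell and 32.5% rose in that comparison. Mgst2, a microsomal form that also makes leukotriene C4, read 19.9, 16.9, 16.7, 20.8 and 20.01 CPM in control and 5.701, 7.05, 5.81 and 8.44 in PMA_ethanol libraries, and 8.54, 9.17 and 11.3 in PMA_1002. All 3 groups were apart, by a narrow margin between the highest PMA_ethanol and lowest PMA_1002 library. Mgst2 fell by 1.46 with PMA_ethanol (SE 0.14, edgeR adjusted p = 1.04e-07) and by 1.01 with PMA_1002 against control (SE 0.12, adjusted p = 3.27e-06). The rise of 0.46 between the treated groups (SE 0.14, adjusted p = 0.01704) was lost without PMA_ethanol library 1 (adjusted p = 0.0721) and without the hair-rich libraries (adjusted p = 0.416). Gstm1, a mu-class enzyme, read 104, 114, 75.1, 98.02 and 93.6 CPM in control, 59.4, 43.8, 48.1 and 61.1 in PMA_ethanol, and 68.6, 74.7 and 82.9 in PMA_1002. PMA_ethanol libraries lay below all others, and PMA_1002 overlapped control library 3. Gstm1 fell by 0.86 (SE 0.12, edgeR adjusted p = 5.44e-06) with PMA_ethanol and rose by 0.50 (SE 0.11, adjusted p = 0.00265) between the treated groups.

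Gsta3, an alpha-class enzyme, varied widely in control, from 13.6 to 32.95 CPM, against 5.39 to 14.9 in PMA_ethanol and 7.302 to 21.1 in PMA_1002. Its control libraries 3 and 5, the lowest, were those with the highest hair follicle level of the group (6.91 and 5.91 log2 CPM). Gsta3 fell by 1.32 with PMA_ethanol (SE 0.39, edgeR adjusted p = 0.007195) and by 0.89 with PMA_1002 against control (adjusted p = 0.03597). The first call held with hair follicle level as a covariate (-1.26, adjusted p = 0.00666) and was lost, at -1.38, with the hair-rich libraries left out (adjusted p = 0.0566), and the second when any of 7 libraries was left out (control 1, 2 and 4, PMA_1002 1, 2, 4 and 5; adjusted p = 0.0646 to 0.0933). Gstm2, Gsta4 and Mgst1 fell by 0.64, 0.48 and 0.31 with PMA_ethanol (edgeR adjusted p = 6.79e-05, 0.0128 and 0.0102), and the last of these calls was also lost without the hair-rich libraries (adjusted p = 0.107). Gsto1 fell by 0.17 (adjusted p = 0.0492), a call lost when any of 13 libraries was left out, all but control library 5 and PMA_ethanol library 2 (adjusted p = 0.0525 to 0.122), and in DESeq2 (adjusted p = 0.192). Gstp1, the pi-class enzyme, was the exception at 0.32 (SE 0.32, edgeR adjusted p = 0.3895), with 14.9 to 33.1 CPM in control and 15.3 to 36.95 in PMA_ethanol. The coding gene Gstp2 is near-identical, and reads aligned to several positions were counted for no gene, so the level of Gstp1 is uncertain. With PMA_1002 against control 5 of the 8 fell, Gsta3, Gsta4, Gstm1, Gstm2 and Mgst2, where 26.7% of all tested genes did.

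Of 14 other glutathione transferases tested, 10 fell and 2 rose with PMA_ethanol (35.9% and 32.5% of all tested genes). With PMA_1002 against control 7 fell (26.7% of all tested genes). The theta-class genes Gstt1 and Gstt3 fell by 1.67 and 1.41 with PMA_ethanol (edgeR adjusted p = 3.52e-05 and 5.96e-07), Gstt3 from 18.9 ± 2.47 to 6.95 ± 1.31 CPM with 10.3 ± 1.66 in PMA_1002. The 2 that rose were Gstp3 at 0.68 and Gstcd at 0.45 (adjusted p = 0.0102 and 0.00495). Between the treated groups 4 rose, including Gsta2 by 0.58 (edgeR adjusted p = 0.005799), and none fell, where 17% and 18% of all tested genes did.

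**Figure D3:**
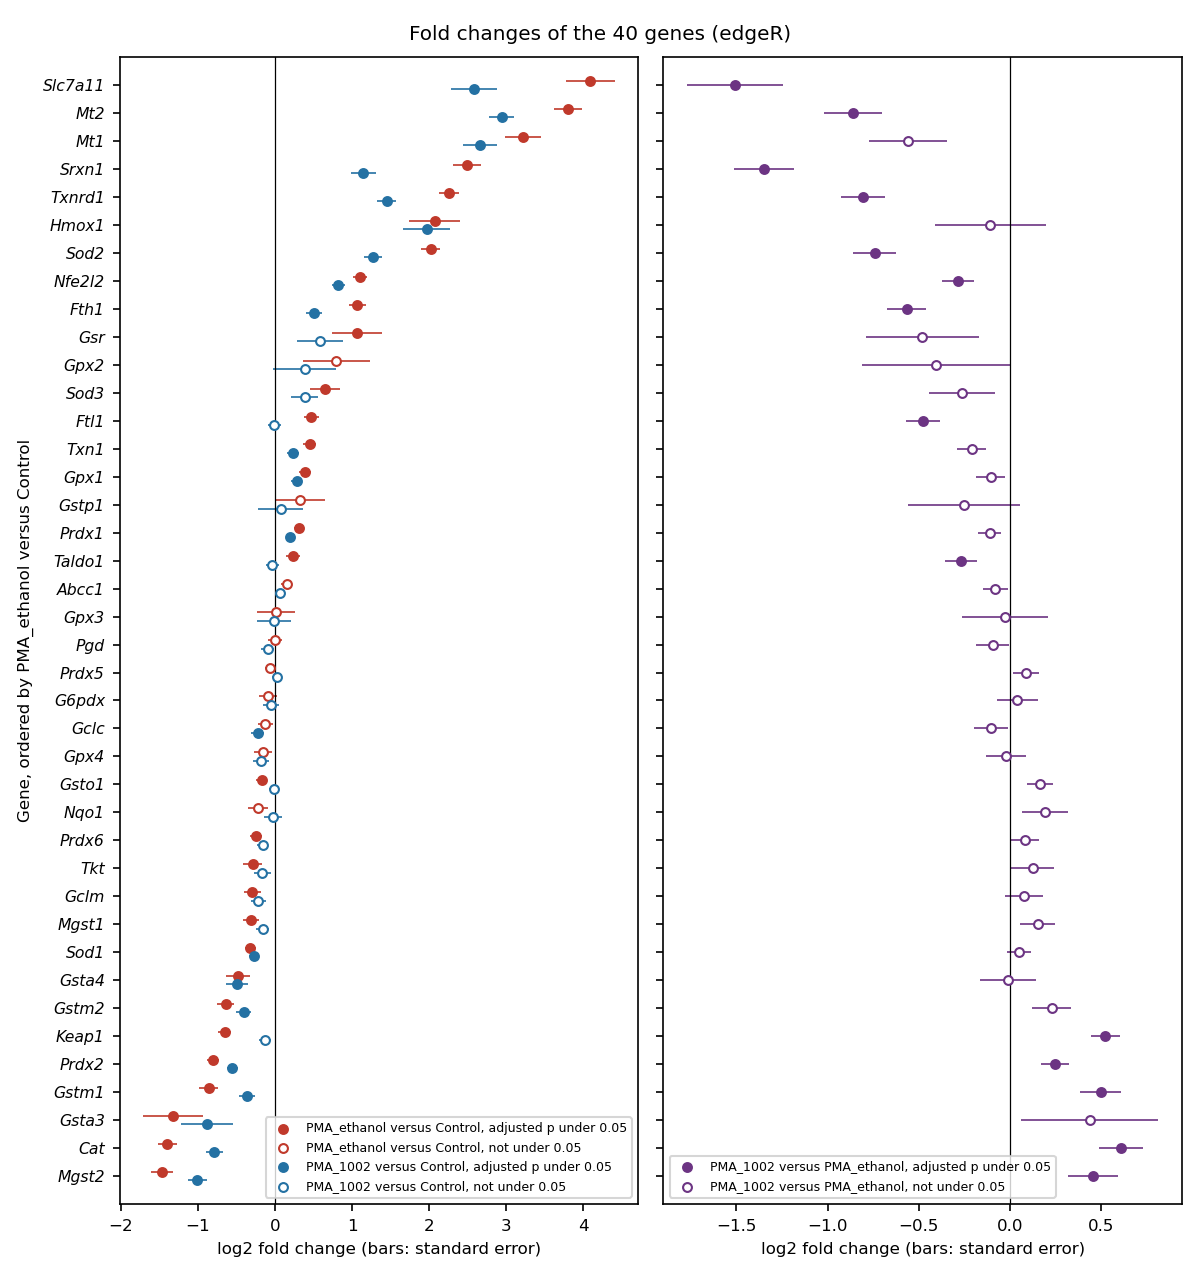
The left panel gives the log2 fold change of each gene against control for PMA_ethanol (red) and PMA_1002 (blue), the right panel that of PMA_1002 against PMA_ethanol (purple), with SE bars; filled points have an adjusted p under 0.05 in edgeR's test. From Slc7a11 at 4.09 to Mgst2 at -1.46, the PMA_1002 points of the genes at either end lie nearer to 0 than the PMA_ethanol points.

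Peroxiredoxins. These thiol peroxidases are among the most abundant antioxidant proteins, and their changes were small. Prdx1, the cytosolic form that rises with NRF2 activity, went from 268 ± 12.4 CPM to 332 ± 17.1 and 307 ± 16.3 in control, PMA_ethanol and PMA_1002, by 0.31 and 0.20 (edgeR adjusted p = 5.24e-04 and 0.0102), with no treated library as low as any control. Upper-quartile scaling lost both calls (0.07 and 0.04, adjusted p = 0.356 and 0.609). Prdx2, the form most abundant in red cells, fell. It read 147, 145, 147, 146 and 149.9 CPM in control, the tightest control group of the 40 genes relative to its mean, 77.7, 98.1, 84.2 and 76.8 in PMA_ethanol, and 91.9, 101 and 111 in PMA_1002. All treated libraries were below all controls. Prdx2 fell by 0.80 (SE 0.078, edgeR adjusted p = 9.14e-08) with PMA_ethanol and by 0.55 (SE 0.068, adjusted p = 3.92e-06) with PMA_1002, and rose by 0.25 between the treated groups (adjusted p = 0.0161), a call lost without PMA_ethanol library 1 or 4 (adjusted p = 0.0599 to 0.0668). The exons of Prdx2 overlap Junb and Rnaseh2a on the other strand, and the strand setting of the counting is not given in the sources used here. Exons of Keap1, Gclm, G6pdx, Prdx5, Mt2 and Ftl1 also overlap genes on the other strand. Prdx5, the mitochondrial and peroxisomal form, passed in no comparison (-0.06 with PMA_ethanol, edgeR adjusted p = 0.474), but was called lower with PMA_ethanol under upper-quartile scaling (-0.30, adjusted p = 0.00131). Prdx6, which also reduces phospholipid peroxides, fell by 0.24 with PMA_ethanol (adjusted p = 0.0109), lost without PMA_ethanol library 1 (adjusted p = 0.0545) and without the hair-rich libraries (-0.15, adjusted p = 0.258).

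Superoxide dismutases and catalase. Of the enzymes that turn superoxide into hydrogen peroxide, the mitochondrial one rose and the cytosolic one fell, and catalase, which removes hydrogen peroxide in peroxisomes, fell. Sod2 read 88.3, 96.8, 77.7, 85.7 and 94.8 CPM in control and 319, 329, 442 and 346 in PMA_ethanol libraries, and 159.5, 215 and 251 in PMA_1002. Its groups were apart, with PMA_1002 between. Sod2 rose by 2.02 with PMA_ethanol (SE 0.13, edgeR adjusted p = 4.35e-10) and by 1.28 with PMA_1002 (SE 0.12, adjusted p = 1.28e-07), and fell by 0.74 between the treated groups (SE 0.12, adjusted p = 1.27e-04). Cat read 184, 171, 148, 179 and 167 CPM in control and 61.7, 58.04, 57.7 and 79.96 in PMA_ethanol libraries, and 85.1, 91.6 and 123 in PMA_1002. Here too no library of a group reached the range of another, with PMA_ethanol lowest. Cat fell by 1.40 with PMA_ethanol (SE 0.13, edgeR adjusted p = 3.50e-08) and by 0.79 with PMA_1002 (SE 0.11, adjusted p = 1.22e-05), and rose by 0.61 between the treated groups (SE 0.12, adjusted p = 8.05e-04). Sod1 fell by 0.32 and 0.27 against control (edgeR adjusted p = 6.75e-04 and 0.00167), from 102 ± 4.59 CPM to 81.2 ± 7.25 with PMA_ethanol and 84.5 ± 4.77 with PMA_1002. Sod3, the extracellular form, rose with PMA_ethanol by 0.65 (SE 0.19, adjusted p = 0.00705), although PMA_ethanol library 2, at 81.1 CPM, lay within the control range of 59.05 to 109.5. Upper-quartile scaling lost this call (0.40, adjusted p = 0.0665). Sod3 with PMA_1002 did not pass against either group, and without PMA_ethanol library 2 both did (adjusted p = 0.0291 against PMA_ethanol and 0.0184 against control).

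Metallothioneins. The 2 genes lie 5513 bases apart on chromosome 8, and Mt2 was the highest of all 40 genes in every group per kilobase of all annotated exons. This rank depends on the length used. The annotated exons of Fth1, rank 2 in control, cover 3469 bases against 1494 in its longest coding transcript. For Mt2 the lengths are 588 and 511 bases. A ranking by transcript length was not made. Mt2 read 151, 168, 176, 147 and 132 CPM in control and 1857, 2044, 2554 and 2159 in PMA_ethanol libraries, and 824, 1202 and 1707 as the lowest, median and highest of PMA_1002. The groups did not meet, and PMA_1002 library 2 came closest to PMA_ethanol. Mt2 rose by 3.80 on the log2 scale, a 13.9-fold change (SE 0.18, edgeR adjusted p = 1.97e-11), and by 2.94 with PMA_1002 (SE 0.17, adjusted p = 6.71e-10), and it fell by 0.86 between the treated groups (SE 0.16, adjusted p = 5.17e-04). Mt1 read 116, 120.2, 86.8, 94.01 and 75.3 CPM in control and 711, 662, 1132 and 1152 in PMA_ethanol libraries, and 390.5, 587 and 881 in PMA_1002. All treated libraries were well above control, and the treated groups overlapped, PMA_1002 libraries 2 and 3 reaching into the PMA_ethanol range. Against control Mt1 went up by 3.21 (SE 0.24, edgeR adjusted p = 1.19e-08) with PMA_ethanol and by 2.65 (SE 0.22, adjusted p = 1.36e-07) with PMA_1002. Its difference of -0.56 between the treated groups (SE 0.21, edgeR adjusted p = 0.0535) just missed the threshold and passed under 9 of 25 alternatives, including without PMA_ethanol library 1 or 2 or PMA_1002 library 2 (adjusted p = 0.0165 to 0.0425).

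Together Mt1 and Mt2 took 0.0224% to 0.0312% of the reads in genes in control, 0.226% to 0.335% in PMA_ethanol and 0.12% to 0.254% in PMA_1002 libraries. All 40 genes took 0.481% to 0.521%, 0.789% to 0.939% and 0.621% to 0.767%. Per kilobase of all annotated exons, Mt2 stood at 263.3, 3662 and 2019 CPM in the 3 groups and Mt1 at 79, 733.8 and 497.2. Mt1 moved from rank 9 of the 40 in control to rank 2 in both treated groups, and these ranks too depend on the lengths used. Reads of Mt2 outnumbered those of Mt1 by 1.3 to 2.03 times in control, 1.88 to 3.09 times in PMA_ethanol and 1.53 to 2.15 times in PMA_1002 libraries. The control and PMA_ethanol ranges of this ratio overlapped, at control library 3 and PMA_ethanol library 4.

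Of 10 other metallothionein and zinc transport genes tested, 6 rose and 1 fell with PMA_ethanol (32.5% and 35.9% of all tested genes). With PMA_1002 against PMA_ethanol 7 fell and 1 rose (18% and 17% of all tested genes). Slc39a14, an importer of zinc and iron induced by inflammation, rose from 49.6 ± 15.04 to 384 ± 62.1 CPM and stood at 181 ± 36.5 with PMA_1002 (log2 fold change 2.94 with PMA_ethanol, -1.08 between the treated groups, edgeR adjusted p = 8.34e-09 and 4.60e-04). The zinc carriers Slc39a1 and Slc30a7 rose by 0.89 and 0.88 with PMA_ethanol (edgeR adjusted p = 4.52e-09 and 4.88e-08). Mt4, the metallothionein of differentiating squamous epithelium, was the gene that fell: it read 114 ± 17.6 CPM in control, 45 ± 12.8 in PMA_ethanol and 63.7 ± 6.22 in PMA_1002 (log2 fold change -1.31 with PMA_ethanol, 0.46 between the treated groups, edgeR adjusted p = 1.46e-06 and 0.0239). The summed CPM of differentiated keratinocyte markers was also lowest in PMA_ethanol, though not every marker fell, and their part in this was not tested. Mt3 was counted too low to be tested.

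Ferritin. Both subunits of the iron store rose with PMA_ethanol and fell between the treated groups. Fth1, the heavy chain, which oxidizes iron for storage, read 769, 785, 654, 726 and 657 CPM in control and 1540.0, 1169, 1846 and 1462 in PMA_ethanol libraries, and 914, 1029 and 1155 in PMA_1002. PMA_ethanol library 2 and PMA_1002 library 2 nearly touched, and no values crossed between groups. Against control Fth1 went up by 1.07 with PMA_ethanol (SE 0.11, edgeR adjusted p = 2.41e-07) and by 0.50 with PMA_1002 (SE 0.10, adjusted p = 5.50e-04), and it fell by 0.56 between the treated groups (SE 0.11, adjusted p = 5.93e-04). Ftl1, the light chain, read 152, 210.3, 216, 173 and 187 CPM in control and 264, 274, 241 and 257 in PMA_ethanol libraries, and 168, 185 and 211 in PMA_1002, so that the PMA_1002 libraries all lay within the control range. It rose by 0.47 with PMA_ethanol, fell by 0.48 between the treated groups, and read -0.01 with PMA_1002 against control (edgeR adjusted p = 3.84e-04, 7.60e-04 and 0.946). Near-identical sequences in 7 other genes, among them 4 pseudogenes and the coding copy Ftl1-ps1, make its level uncertain.

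Among 11 other iron genes, 6 rose and 3 fell with PMA_ethanol (32.5% and 35.9% of all tested genes). Lcn2, lipocalin 2, which binds bacterial iron carriers and is made by neutrophils and epithelium, had the largest change of the wider lists, from 4.18 ± 0.817 CPM in control to 226 ± 23.1 in PMA_ethanol and 49.2 ± 9.11 in PMA_1002 (log2 fold change 5.77, and -2.21 between the treated groups, edgeR adjusted p = 4.69e-14 and 3.50e-09). All 9 neutrophil markers tested rose with PMA_ethanol and fell with PMA_1002 against PMA_ethanol as well, and their part in the values of Lcn2 was not tested. Steap4, a metalloreductase, rose from 52.7 ± 2.98 to 182 ± 28.99 CPM and read 121 ± 21.6 with PMA_1002. Heph, a ferroxidase that works with the iron exporter, fell by 1.35 with PMA_ethanol (edgeR adjusted p = 4.23e-07). The exporter itself, Slc40a1, fell by 1.25 with PMA_1002 against control (edgeR adjusted p = 6.57e-05), from 78.2 ± 20.01 to 33.2 ± 7.95 CPM. It fell with PMA_ethanol too, to 39.8 ± 8.66 CPM (-0.95, adjusted p = 0.00114), and the treated groups stood at -0.30 from each other (adjusted p = 0.293).

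**Figure D4:**
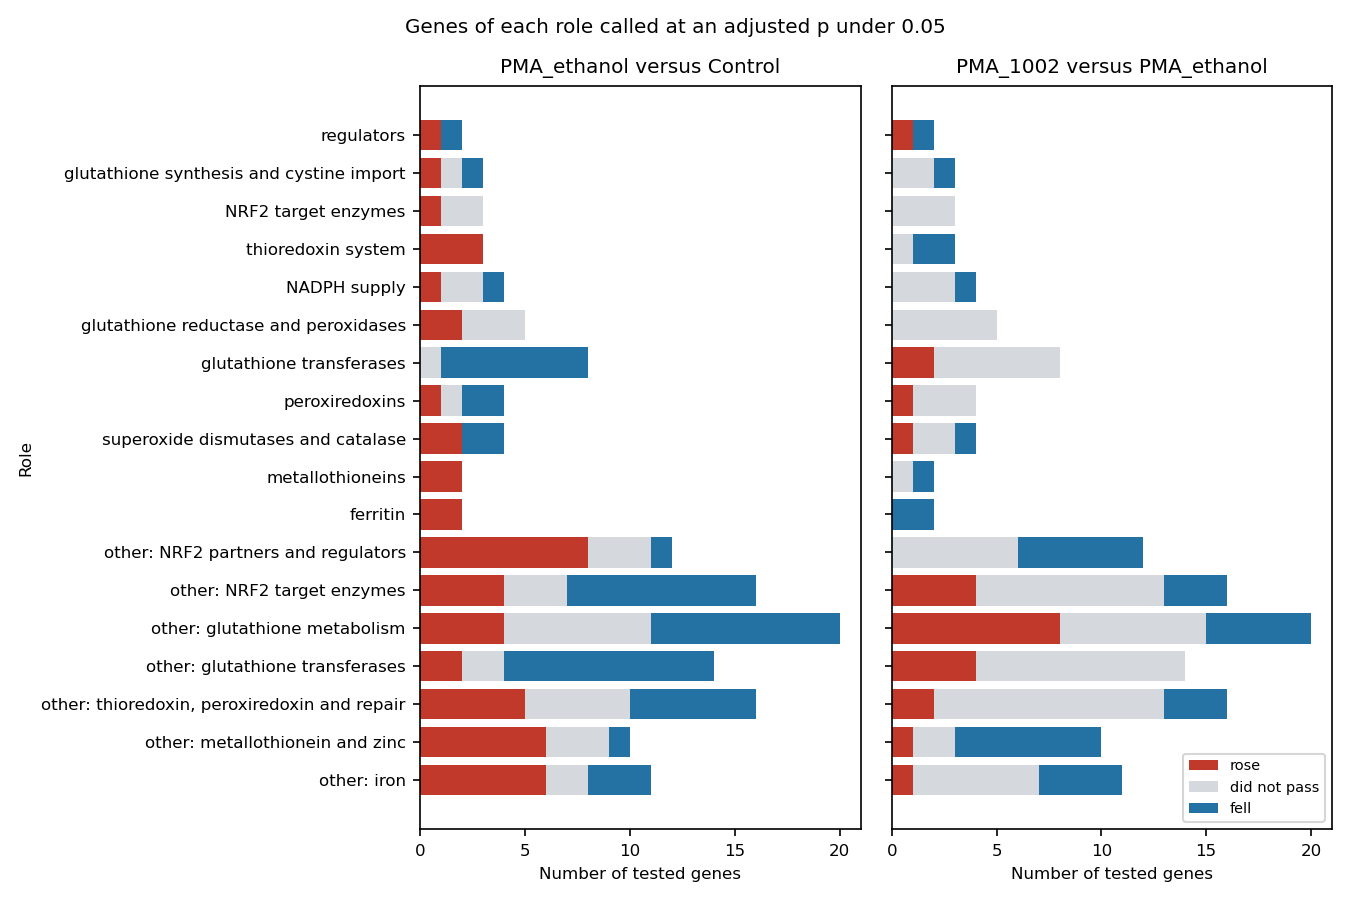
Bars count the tested genes of each role that rose (red), did not pass (grey) or fell (blue) at an adjusted p under 0.05 in edgeR's test; rows starting with "other" are the wider lists. Glutathione transferases show 7 of 8 members and 10 of 14 others falling with PMA_ethanol, and the thioredoxin, metallothionein and ferritin members show rises only in that comparison. Of all tested genes 32.5% rose and 35.9% fell there.

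Over the wider lists together, 99 of 106 genes could be tested, and 35 rose (35.4%) and 39 fell (39.4%) with PMA_ethanol, where 32.5% and 35.9% of all tested genes did. With PMA_1002 against PMA_ethanol 20 rose (20.2%) and 28 fell (28.3%), where 17% and 18% of all did, and with PMA_1002 against control 31 rose (31.3%) and 34 fell (34.3%), where 28.4% and 26.7% of all did. The count of 20 was 8 without the hair-rich libraries, where rises over all tested genes went from 2553 to 1164. With all libraries, the medians of the wider lists were -0.05, 0.02 and -0.07 on the log2 scale, near those of all tested genes at -0.07, 0.03 and -0.03.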

How the data were processed

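Ear RNA was sequenced in 15 libraries. Per the labels' protocols, polyA RNA was purified and libraries were made with a stranded kit. The submitters' processing notes name STAR 2.5, HTSeq, FastQC 0.11.5, MultiQC 0.8 and the build GRCm38. The sources used here do not give the annotation or the strand setting of the counting. The authors deposited whole-number read counts per gene, 1 table per library. In each library 28.5% to 32.85% of reads were given to no gene, and these were left out. Reads aligned to several positions, 15.98% to 20.12% of a library, were among them. Symbols came from GENCODE M21.

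Counts were tested in R 4.3.3 with edgeR 4.0.16 (filterByExpr by group, TMM, robust quasi-likelihood fit on 3 groups, adjusted p under 0.05), and the script was tested on simulated data. SEs were derived from the F statistic. Alternatives, 25 in all, included DESeq2 1.42.0. Promoters came from RefSeq on GRCm38.p6, and near-identical transcripts from blastn 2.17.0. Matches to other genes at 95% identity or more over at least 200 bases were found for 13 members. They were Slc7a11, Gstp1, Ftl1, Mt2, Keap1, Prdx1, Prdx2, Prdx5, Txn1, Sod1, Gstm1, Gpx2 and Gpx4, and their levels may be uncertain for this reason. Libraries of a group differed by more than sampling noise (chi-square per degree of freedom 2.93 or more in 31 pairs). Members and lists were chosen with earlier results of these data known. Besides members, the text names from the wider lists, per comparison and direction, the 4 called genes of largest change, provided their higher group averaged 5 CPM or more, and up to 2 more per list by smallest adjusted p.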

Additional observations from a re-analysis of the deposited data

Results flagged for a closer look

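Of 120 sets of values (40 genes in 3 groups), 3 held a library set apart from the rest of its group, where chance sets apart about 1 in 20. Control library 1 was low for 2 enzymes of NADPH supply: Pgd read 110.8 CPM against 115.9 to 117.7 in the other control libraries, and Taldo1 read 96.6 CPM against 113.5 to 117.7. Without that library Taldo1 no longer passed for PMA_ethanol against control (edgeR adjusted p = 0.0869). Gpx2 read 6.002 CPM in PMA_ethanol library 2 against 2.489 to 2.741 in the other 3, in a library that also had the highest hair follicle level of its group (6.76 log2 CPM). In fits with hair follicle level as a covariate Gpx2 passed with PMA_ethanol against control at 0.78 (edgeR adjusted p = 0.0379).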

How the results depend on the processing

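Slc7a11, Srxn1, Txnrd1, Hmox1, Sod2, Cat, Mt1, Mt2, Fth1 and Nfe2l2 kept their calls against control under the 25 alternatives. Leaving out 1 library at a time gave 15 to 17 members that rose and 11 to 15 that fell with PMA_ethanol against control, 3 to 7 and 8 to 10 with PMA_1002 against PMA_ethanol, and 12 to 13 and 7 to 10 with PMA_1002 against control. Without the 6 hair-rich libraries, chosen after seeing the data and leaving 3, 2 and 4 libraries, 9 members fell with PMA_ethanol. Falls over all tested genes went from 5382 to 4119 in that comparison. With PMA_1002 against PMA_ethanol, the same fit gave 8 genes of the wider lists that rose, and 1164 of all tested genes rose and 1709 fell. With upper-quartile scaling 17 members fell with PMA_1002 against control, and Taldo1 with PMA_ethanol stood at -0.00533. The cause of these shifts was not tested, and the effect of having fewer libraries was not told apart from that of hair follicle level. Library numbers are shared between groups, but same-numbered libraries did not deviate together (r = -0.53 to 0.58 over 13 pairs, 2 over 0.1, and 1 of 12 libraries correlated best with its own number). With the number as a replicate block, 12 genes of the wider lists rose with PMA_1002 against PMA_ethanol. Leaving out 1 library also gave calls with PMA_1002 against PMA_ethanol for Gstm2 (without PMA_1002 5, edgeR adjusted p = 0.0337), Gsto1 (without PMA_ethanol 2, 0.0415) and Mgst1 (without PMA_ethanol 4, 0.0396), and against control for Gclm (without control 2 or PMA_1002 3, 0.0413 to 0.0455) and Prdx6 (without control 1 or 3, 0.032 to 0.0431). Counting error limits Gpx2 most, the member of lowest CPM.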

Other observations

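Over the 15 libraries, the tested genes outside the members whose log2 CPM followed Mt2 most closely by Pearson's r were Ccl2 (r = 0.994), Ddx18 (0.993), Nfkbie (0.992), Panx1 (0.992) and Ifitm3 (0.992). For Srxn1 they were Cap1 (r = 0.988), Rgs2 (0.987), Epha2 (0.987), Mxd1 (0.986) and Itga5 (0.985). These are descriptions across libraries that share the 3 treatment groups, and most of each r comes from differences between groups that many genes share. Ccl2, a chemokine that attracts monocytes, had a mean of 4.52 CPM in control, 492.4 in PMA_ethanol and 189.9 in PMA_1002. Mxd1, a partner of MAX, had means of 64.5, 513.7 and 156.2 CPM in the same order.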
